A study of Mus musculus with 294 samples.

Results

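Decorin (Dcn), lumican (Lum), biglycan (Bgn), fibromodulin (Fmod), osteoglycin (Ogn), prolargin (Prelp) and asporin (Aspn) are small leucine-rich proteoglycans, and all 7 had a row among the 15124 genes of the deposited count table. They were taken by name, with no threshold on their values, but with earlier results of these data known. Small leucine-rich proteoglycans are secreted proteins of the extracellular matrix, built around a curved stack of leucine-rich repeats, and most of them carry glycosaminoglycan chains. They bind fibrillar collagens and limit the width and spacing of collagen fibrils, and several of them also bind growth factors such as TGF-beta. In the embryonic heart such matrix is laid down by the mesenchyme of the outflow tract and the forming valves, and by the smooth muscle of the great arteries. By sequence, Dcn, Bgn and Aspn form class I, whose first 2 members carry chondroitin or dermatan sulfate. Class II holds Lum, Fmod and Prelp, of which Lum and Fmod carry keratan sulfate, and class III holds Ogn.

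RNA was read from single EYFP-positive cells of Wnt1-Cre; R26-EYFP mouse embryos, a genotype in which a Cre recombinase driven by Wnt1 switches on a yellow fluorescent reporter in neural crest cells and their descendants. The cells came from the aorticopulmonary septum region of the heart at 4 ages, from embryonic day 11.5 through 12.5 and then 14.5 to 17.5, were sorted by fluorescence and were captured on Fluidigm C1 chips that take cells of medium size. All cells share genotype and sort, no other treatment is given, and the sort holds only cells in which the driver had been active, so matrix made by other cells of the heart was not measured. No label gives the age, embryo or chip of a single cell, so the cells formed 1 group without replicates, no test was possible and all differences below describe these cells only.

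The cells were described by the first digit of their names, which runs from 1 to 7 and with no label to say what it stands for. These 7 name series held 58, 48, 38, 38, 34, 34 and 44 cells in that order. Total counts ran from 34046 to 3033857 reads per cell with a median of 1204543, and series medians ran from 635879 in series 3 to 1630832.5 in series 2. Series 1 stood apart, because 13.6% of genes had at least 1 read in each of its 58 cells, against 0.866 to 1.81% of genes in the other series. The part of this in the low levels of series 1 was not tested. Shares of series 1 are therefore also given at 100 CPM, except for Bgn, whose lowest cell there had 384.5 CPM. At least 3 of 10 mesenchyme markers reached 10 CPM (the reads of a gene scaled to the total of its cell) in every cell. At least 3 of 9 glial markers did so in 15 cells, 7 in series 1 and 8 in series 2. At least 3 endothelial markers did so in 4 cells, cardiomyocyte markers in 3, epicardial markers in 1 and melanocyte markers in 0. Only 4 of 7 endothelial, 3 of 5 epicardial and 4 of 6 melanocyte genes had a row. Blood could not be judged by this rule, since only 1 of 6 genes had a row. At least 3 markers of division reached 10 CPM in 97 cells, and at least 3 of smooth muscle in 82.99% of cells.

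The genes differed widely in how many cells held them, from Bgn in most cells of every name series to Ogn in few cells outside series 1 and 2. A gene was called detected in a cell at 10 CPM or more. Bgn was detected in 88.1% of all cells (95% exact Clopper-Pearson interval 83.8 to 91.6%), Lum in 83.7% (78.9 to 87.7%), Dcn in 58.2% (52.3 to 63.9%) and Aspn in 50.7% (44.8 to 56.5%). Fmod was detected in 29.9% (24.8 to 35.5%), Prelp in 26.2% (21.3 to 31.6%) and Ogn in 20.4% (15.95 to 25.5%). The intervals of Bgn and Lum overlapped, as did those of Dcn and Aspn, and those of Fmod, Prelp and Ogn overlapped with each other. These intervals cover counting error only. A gene was called broad when at least 50% of the cells of every name series held it, and restricted when under 25% of the cells of every series did. By that rule 1 of the 7 genes, Bgn, was broad, against 7.17% of all genes and 11.3% of those whose mean was 10 CPM or higher, and 0 were restricted, against 49.2% of all genes. The other 6 were uneven, as were 43.6% of all genes, and Lum missed the broad class through series 5 alone. At 1 read in place of 10 CPM Lum was broad too, and at 100 CPM 0 of the 7 were. The 7 were chosen with earlier results of these data known. Of the 8 other small leucine-rich proteoglycans with a row 7 were restricted, so these counts do not describe the whole family.

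All 7 genes were graded over the name series, meaning that the highest series mean was at least 4 times the lowest after 10 CPM was added to both. The same held for 20.9% of all genes, and for 31.2% of those whose mean was 10 CPM or higher. For 5 genes, Dcn, Bgn, Fmod, Prelp and Aspn, the means of series 1, 2 and 3 all lay above those of series 4 to 7, against 4.87% of all genes and 5.16% of those whose mean was 10 CPM or higher. The reverse order held for 0 of the 7 and for 4.67% of all genes. Lum and Ogn did not follow the order of series 1 to 3 above 4 to 7. This grouping of the series was not among the rules planned beforehand, and no label gives it. The median cell held 3 of the 7 genes, and series medians were 6, 5, 4, 3, 1, 2 and 3 genes from series 1 to 7. Of the 98 cells with 5 or more of them (33.3% of cells), 52 lay in series 1, 28 in series 2 and 15 in series 3, against 3 cells in the other 4 series together. All 7 were found together in 14 cells, and 6 cells held none, 5 of them in series 5. These counts use the 10 CPM cut, and the part of the low levels of series 1 in them was not tested.

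**Figure D1:**
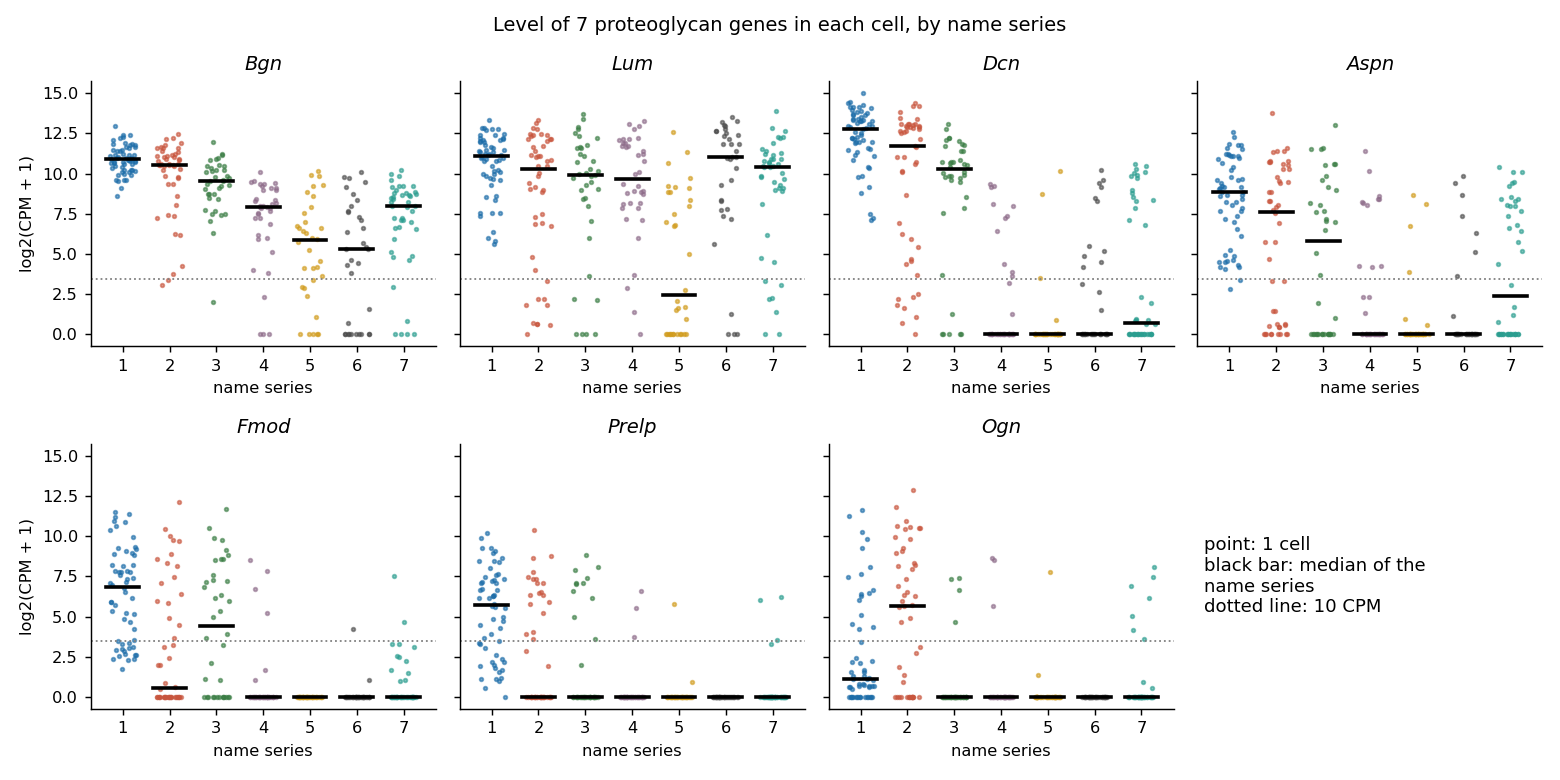
Level of each gene in each cell, as log2(CPM + 1), by name series. Each point is 1 cell, the black bar is the series median and the dotted line marks 10 CPM. Bgn points lie above the line in most cells of every series, Lum drops in series 5, and Dcn and Aspn medians reach 10 CPM only in series 1 to 3.

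Levels of different genes were compared only per kilobase of the principal transcript. The summed level of the 7 genes was 7517 CPM per kb in series 1, 5170.5 in series 2, 2783 in series 3, 1174 in series 4, 297.7 in series 5, 1543 in series 6 and 1168 in series 7. Dcn made up 63.7% of the sum in series 1, 55.02% in series 2 and 38.5% in series 3, but only 3.57 to 12.7% in series 4 to 7. Lum made up 14.7%, 17.9% and 33.4% in the first 3 series and 60.3 to 88.8% in the other 4. Thus the same family was led by Dcn in series 1 to 3 and by Lum in series 4 to 7. The order rests on transcript length in part. With the union of all annotated exons, which is 5838 bases for Dcn against 1758 bases for its principal transcript, Dcn led only in series 1 (40.2%) and series 2 changed to Lum (33.7% against 31.2% for Dcn), as did series 3 (51.8% against 17.97%).

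**Figure D2:**
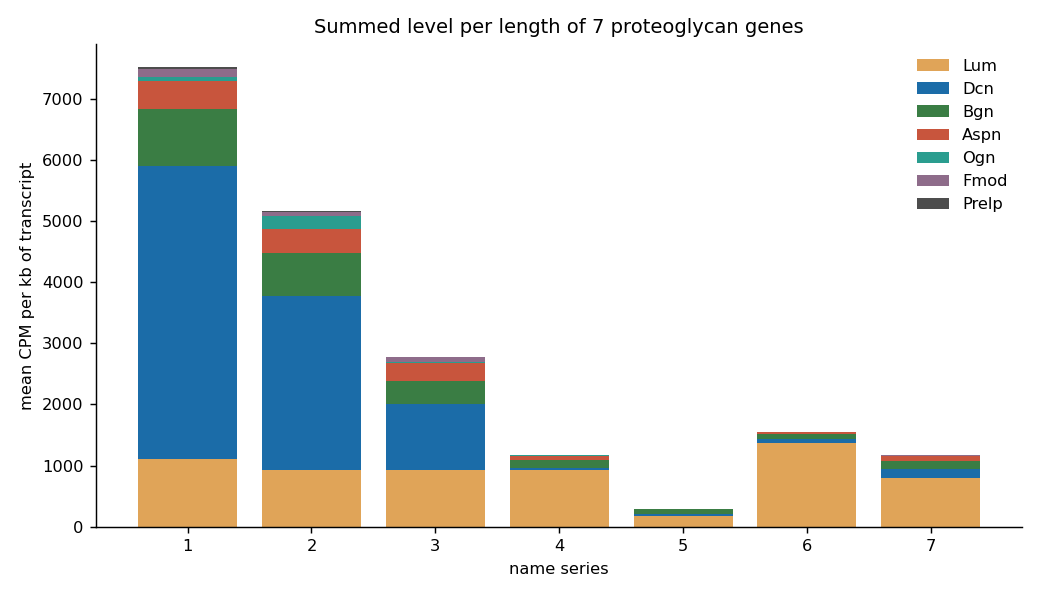
Stacked bars of the mean level of each gene in CPM per kilobase of principal transcript, by name series, without error bars since series are not replicates. Dcn fills most of the bar in series 1 and 2, while Lum fills most of it in series 4 to 7, and the bar of series 5 is the lowest at 297.7.

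Bgn (ENSMUSG00000031375.17, chrX:73483602-73495933, plus strand, GRCm38) binds collagen I and TGF-beta. Its share in its lowest series was the highest of the 7 genes. It was detected in 100% of series 1, 95.8% of series 2, 97.4% of series 3, 89.5% of series 4, 70.6% of series 5, 64.7% of series 6 and 86.4% of series 7. Its presence was broad, but its level was not even. In series 1 the lowest cell had 384.5 CPM, the median cell 1885 and the highest 8073. The median was 1513 CPM in series 2 (7.34 to 5750) and 744.9 in series 3 (2.997 to 3977). In series 7 the median was 250.9 CPM (0 to 1187) and in series 4 it was 241.4 (0 to 1088). In series 5 the median was 56.6 CPM (0 to 1147) and in series 6 it was 38.7 (0 to 1120). The 95% intervals of the medians overlapped between series 1 and 2, between series 4 and 7 and between series 5 and 6, and that of series 6 (0.604 to 155.95) also reached into those of series 4 and 7. They did not overlap between series 2 (1202 to 2119) and series 3 (422.9 to 1167), and the lowest cell of series 1 lay above the medians of series 4 to 7.

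The 250 bases before the start of Bgn are shown because Bgn is the broad gene of the family and this stretch holds a motif found at many widely used promoters. They come from RefSeq on GRCm38.p6, chrX:73483351-73483600, plus strand, printed 5′ to 3′. Capitals mark the GC box GGGCGG on either strand.
Bgn: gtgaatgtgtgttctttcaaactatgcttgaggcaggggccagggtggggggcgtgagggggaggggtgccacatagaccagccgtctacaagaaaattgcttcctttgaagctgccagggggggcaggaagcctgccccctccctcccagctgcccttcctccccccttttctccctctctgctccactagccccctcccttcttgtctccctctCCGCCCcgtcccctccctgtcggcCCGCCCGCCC
The GC box matched 3 times, beginning 34, 10 and 6 bases before the start, the last pair overlapping. A match is only a match of letters, and 32.7% of 32851 promoter windows of this length hold this motif. Whether it bears on the presence of Bgn was not tested, and Dcn and Lum had no promoter entry. The windows were searched on both strands for the TATA box TATAAA, the CCAAT box by its letters, the GC box GGGCGG, the AP-1 site TGANTCA, the MCAT element CATTCC and the CArG box, and only the GC box matched here.

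Dcn (ENSMUSG00000019929.16, chr10:97479609-97518143, plus strand) encodes decorin, which binds collagen fibrils and sequesters growth factors. It was the most strongly graded of the 7 genes by the fold with 10 CPM added, and also with 100 CPM added (58.2). With 1 CPM added the folds of Ogn (547.4) and Fmod (402.2) were above that of Dcn (178.1). All 58 cells of series 1 held Dcn, between 139.7 and 33181 CPM with a median of 7119.7. The median was 3332 CPM in series 2 (0 to 21684) and 1245 in series 3 (0 to 8693). In series 4 to 7 the medians were 0, 0, 0 and 0.637 CPM, and the highest cells reached 638.3, 1136, 1177 and 1529 CPM. The share of cells with Dcn was 100%, 83.3% and 84.2% in series 1, 2 and 3, and 28.9%, 8.82%, 32.4% and 36.4% in series 4 to 7. The intervals of the share did not overlap between any of the first 3 series (lowest bound 68.7%) and any of the last 4 (highest bound 52.2%). At 100 CPM the split remained, with 100%, 68.8% and 81.6% of cells against 18.4%, 5.88%, 17.6% and 36.4%. At 1000 CPM the shares were 87.9%, 64.6% and 55.3% against 0%, 2.94%, 2.94% and 11.4%. Mean levels ran from 8419 CPM (SD over cells 6888) in series 1 to 46.3 CPM (SD 205.96) in series 5, a ratio of 149.8 with 10 CPM added.

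Aspn (ENSMUSG00000021388.14, chr13:49544443-49567565, plus strand) encodes asporin, which binds collagen and TGF-beta and carries no glycosaminoglycan chain. Like Dcn it was most frequent in series 1, where 96.6% of cells held it and levels ran from 6.03 to 6213 CPM with a median of 464.7. The share was 60.4% in series 2 (median 198.2 CPM, 0 to 14107) and 55.3% in series 3 (median 60.8, 0 to 8239). It was 47.7% in series 7 (median 4.74 CPM, 0 to 1333), 28.9% in series 4 (0 to 2745), 20.6% in series 6 (0 to 905.4) and 11.8% in series 5 (0 to 406.6), with medians of 0 in the last 3. The shares of series 2, 3 and 7 lay within each other's intervals, so the order among them was not resolved. At 100 CPM the shares of series 1, 2 and 3 were 74.1%, 54.2% and 47.4%. Between series 3 and 7 the intervals of the Aspn share overlapped and those of the Dcn share did not.

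Lum (ENSMUSG00000036446.5, chr10:97565128-97572703, plus strand) encodes lumican, a keratan sulfate proteoglycan that is needed for regular collagen fibrils in the cornea. It did not share the step between series 3 and 4. It was detected in 100%, 79.2%, 84.2% and 92.1% of cells in series 1 to 4, in 47.1% (29.8 to 64.9%) in series 5, and in 88.2% and 84.1% in series 6 and 7. At 100 CPM the share of series 1 was 93.1%. The median was 2163 CPM in series 1 (47.4 to 10472), 1239 in series 2 (0 to 10392), 980.2 in series 3 (0 to 13307) and 820.5 in series 4 (0 to 10128). It was 4.47 CPM in series 5 (0 to 6104), 2094 in series 6 (0 to 11840) and 1347 in series 7 (0 to 15280). Outside series 5 the 95% intervals of the medians all overlapped. The interval of series 5 (0 to 252.7) reached only into that of series 2 (175.1 to 2253). The highest series mean of Lum, 3356 CPM, was in series 6, where Bgn had its lowest mean, 183.6 CPM. Without series 5 the ratio of the highest to the lowest series mean was 1.71 with 10 CPM added, so the graded call of Lum rests on series 5.

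Fmod (ENSMUSG00000041559.7, chr1:134037254-134048277, plus strand) encodes fibromodulin, which shares a collagen binding site with lumican and is abundant in tendon. It was found mainly in series 1 to 3. It was detected in 74.1% of series 1 (2.35 to 2952 CPM, median 115.5), 35.4% of series 2 (0 to 4488, median 0.458) and 55.3% of series 3 (0 to 3396, median 21.9). In series 4 it was detected in 4 cells (10.53%), in series 6 in 1 cell and in series 7 in 2 cells, at most 360.5 CPM. Series 5 had 0 reads of Fmod in 34 cells, a count for which the exact 95% interval reaches 10.28% and the limit of 3 counts over the cells is 8.82%. No cell of series 1 was at 0, and at 100 CPM the share of series 1 was 51.7%, against 22.9% in series 2 and 36.8% in series 3.

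Prelp (ENSMUSG00000041577.5, chr1:133910304-133921414, minus strand) encodes prolargin, which binds collagen and heparan sulfate. It was also found mainly in series 1 to 3, at 68.97%, 39.6% and 28.9% of cells. At 100 CPM these shares were 39.7%, 18.75% and 18.4%. The highest cells of those series reached 1186, 1322 and 449.8 CPM, and the medians were 52.4, 0 and 0 CPM. In series 4, 5 and 7 it was detected in 3, 1 and 3 cells, at most 93.5 CPM, and in series 6 it had 0 reads in 34 cells. Without series 1 the share of all cells with Prelp was 15.7% in place of 26.2%, and that of Fmod 19.1% in place of 29.9%. With 100 CPM added the ratio of the highest to the lowest series mean of Prelp was 2.48, under the 4 that the graded rule asks.

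Ogn (ENSMUSG00000021390.6, chr13:49608046-49624501, plus strand) encodes osteoglycin, also called mimecan, a class III member known from bone and from vascular smooth muscle. It was highest in series 2 and not in series 1. In series 2 it was detected in 28 of 48 cells, 58.3% (43.2 to 72.4%), with a median of 50.1 CPM and a highest cell of 7714 CPM. In series 1 it was detected in 17 of 58 cells, 29.3% (18.1 to 42.7%), with a median of 1.15 CPM and a highest cell of 3209 CPM. The intervals of these shares did not overlap. At 100 CPM the shares were 39.6% in series 2 and 13.8% in series 1. In series 3, 4, 5 and 7 it was detected in 4, 3, 1 and 7 cells, with highest cells of 166.99, 407.4, 221.995 and 272.6 CPM, and in series 6 it had 0 reads. Without series 2 the share of all cells with Ogn was 13.01%. Of the 7 genes Ogn had the lowest share in series 1.

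Ogn and Aspn lie on the same strand of chromosome 13 with Omd (osteomodulin) between them, 40480 bases apart, and differ in presence: 20.4% against 50.7% of cells, with Omd in 4.76%. The stretches before both starts are shown to compare these neighbours. They come from RefSeq on GRCm38.p6, chr13:49607765-49608014 for Ogn and chr13:49544193-49544442 for Aspn, plus strand, 5′ to 3′. Capitals mark the TATA box, the CCAAT box or the MCAT element on either strand.
Ogn: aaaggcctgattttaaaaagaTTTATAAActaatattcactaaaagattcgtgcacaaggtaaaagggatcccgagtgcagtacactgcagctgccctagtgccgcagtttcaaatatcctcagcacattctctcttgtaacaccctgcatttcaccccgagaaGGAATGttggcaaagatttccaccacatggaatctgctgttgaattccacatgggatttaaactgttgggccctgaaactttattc
Aspn: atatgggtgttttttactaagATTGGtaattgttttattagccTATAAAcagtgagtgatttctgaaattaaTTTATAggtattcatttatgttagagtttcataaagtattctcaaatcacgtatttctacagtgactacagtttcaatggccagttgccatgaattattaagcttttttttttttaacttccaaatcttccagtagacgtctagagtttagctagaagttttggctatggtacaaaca
Counted from the first base shown, the TATA box matched in the Ogn window at positions 22 and 24, on both strands and overlapping, and the MCAT element began 86 bases before the start. In the Aspn window the TATA box matched at positions 44 and 73 and the CCAAT box at position 22. Of all windows of this length, 12.4% hold the TATA box, 33.8% the CCAAT box and 12.6% the MCAT element. Neither window held the GC box, which 32.7% of windows hold, and no factor was measured at these sites.

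Acta2 encodes the alpha actin of smooth muscle, and cells were split at 100 CPM of it within each name series. This split used a value measured in the same cells, so it is a description. Acta2 reached that level in 52.7% of cells. From series 1 to 7 the numbers with it were 50, 25, 14, 20, 16, 8 and 22, and without it 8, 23, 24, 18, 18, 26 and 22. The pooled shares therefore mix the split with the name series, and levels were compared within series first. A gene was called higher or lower with Acta2 when the mean over series of the log2 ratio of mean CPM, with 10 CPM added, passed a ratio of 1.5 and at least 6 of 7 series had that sign. Of the 7 genes 1, Ogn, was higher, against 2.38% of all genes, and 0 were lower, against 2.75% of all genes. Of genes whose mean was 10 CPM or higher, 3.4% were higher and 4.05% lower. Beside them, 8 of 11 smooth muscle genes other than Acta2 itself were higher and 0 lower, among them Tpm1, Tagln and Myl9 with mean log2 ratios of 1.53, 2.17 and 1.84.

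Ogn was detected in 48 cells with Acta2, 30.97% of them (23.8 to 38.9%), and in 12 without, 8.63% (4.54 to 14.6%). In series 1 the counts were 17 of 50 with Acta2 and 0 of 8 without, and in series 2 they were 20 of 25 (80%) and 8 of 23 (34.8%). In series 3 they were 2 of 14 and 2 of 24, in series 4 3 of 20 and 0 of 18, in series 5 1 of 16 and 0 of 18, and in series 7 5 of 22 and 2 of 22. Ogn was thus more frequent with Acta2 in each of the 6 series that held it. A share that is higher with Acta2 in at least 6 series, a rule added after these values were seen, was found for 10.2% of all genes, and a share lower in at least 6 series for 1.22% of genes and 0 of the 7. The mean log2 ratio was 1.56 (SD over series 1.43, from 0 in series 6 to 4.23 in series 1). It depends on the CPM added, since the cells without Acta2 were at 0 in series 4 and 5, and it was 3.08 with 1 CPM added. The call was lost with 100 CPM added and with the Acta2 split at 10 or at 1000 CPM.

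Levels of Ogn did not split as cleanly as its presence. In series 2 the mean was 585.0 CPM with Acta2 and 504.4 without, while the medians were 163.4 and 0 CPM. The mean without Acta2 rests on few cells, and the highest cell of the whole data set for Ogn, at 7714 CPM, was 1 of them. Over all cells the share with Ogn was 8.33% at 0 CPM of Acta2, 9.62% above 0 and under 10 CPM, 7.41% from 10 to under 100 CPM, 17.9% from 100 to under 1000 CPM and 44.2% at 1000 CPM or more. The last group held 32 cells of series 1, so this order also carries the name series. The 8 cells of series 2 with glial markers moved with this result, since Ogn was detected in 1 of them against 27 of the other 40. When all 15 cells with glial markers were left out, a choice made after the values were seen, the mean log2 ratio was 1.51 but only 5 series were higher and the call was lost.

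**Figure D3:**
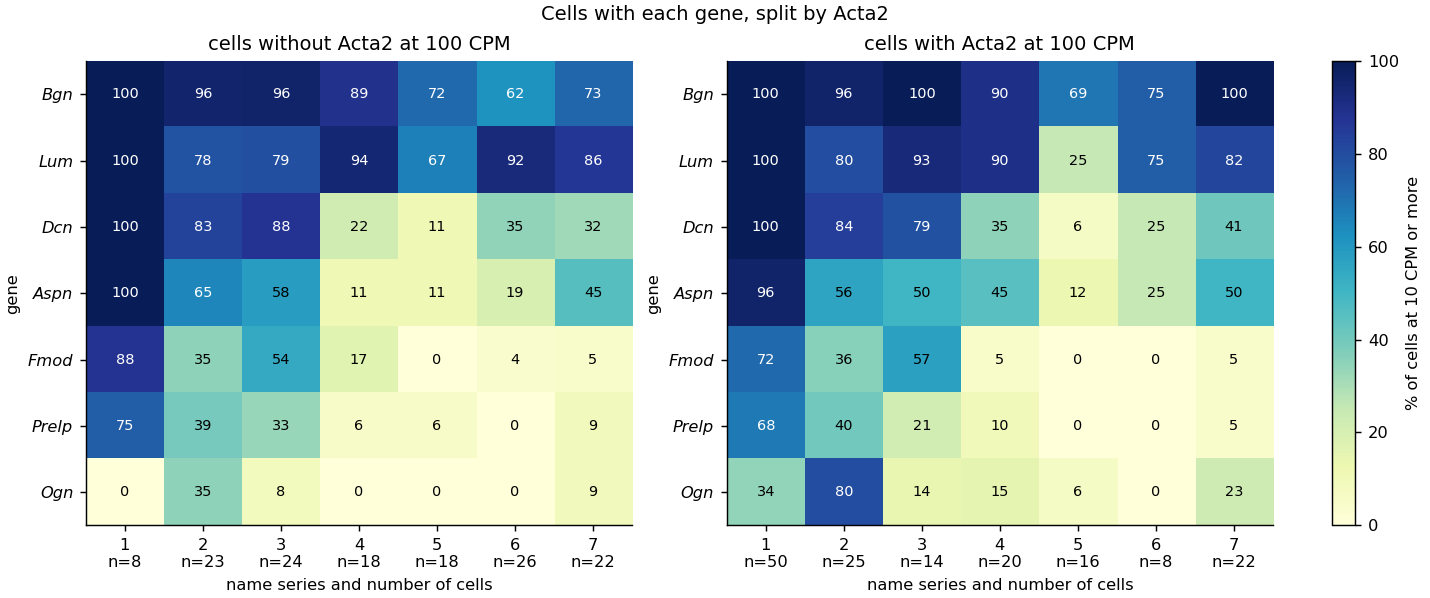
Share of cells with each gene at 10 CPM or more, in percent, by name series (columns, with the number of cells) for cells without Acta2 on the left and with it on the right. The row of Ogn is the one that is higher on the right in all 6 series that hold it, while Bgn stays above 60% in every column on both sides.

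Bgn lay in the same direction as Ogn but under the threshold, with a mean log2 ratio of 0.55 (SD over series 0.62) and 6 series higher. Its largest contrasts were in series 5, with means of 287.04 CPM with and 104.8 CPM without Acta2, and in series 7, with 429.3 and 185.2 CPM. In series 7 all 22 cells with Acta2 held Bgn against 16 of 22 without, and in series 2 the medians were 1954 and 862.8 CPM. Bgn was broad among the cells with Acta2 (lowest series share 68.8%) and among those without (61.5%). In series 1 the means were alike, 2281 and 2224 CPM.

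In mean level, Dcn, Lum and Prelp lay in the other direction without passing the rule. The mean log2 ratio of Dcn was -0.69 (SD 1.27) with 5 series lower. Without series 5, where Dcn was detected in 1 cell with and 2 cells without Acta2, it was -0.28. In series 2 its means were 3871 CPM with and 6230.1 CPM without Acta2. The share of cells with Dcn, averaged over series, was 52.8% on both sides. With Acta2 that share was higher in 3 series, lower in 3 and equal in 1. Over all cells in 1 stratum the same ratio of Dcn was 0.74, the opposite sign, and series 1, where Dcn was highest, held 50 cells with Acta2 and 8 without. The mean log2 ratio of Lum was -0.27 (SD 0.43), with 5 series lower, and -0.13 without series 2. In series 5 Lum was detected in 4 of 16 cells with Acta2 (25%) and in 12 of 18 without (66.7%), and among the cells without Acta2 Lum was broad. In series 2 its means were 1460.3 CPM with and 3141 CPM without. Prelp had a ratio of -0.49 (SD 0.80), with 4 series lower, and -0.30 without series 2.

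Fmod and Aspn showed no common direction. The mean log2 ratio of Fmod was 0.03 (SD 0.76), with 2 series higher and 4 lower, and it was -0.19 without series 2 and 0.21 without series 1. That of Aspn was -0.09 (SD 1.68), ranging from -2.17 in series 3 to 3.24 in series 4, and it was 0.25 without series 3 and -0.65 without series 4. In series 4 Aspn was detected in 9 of 20 cells with Acta2 and in 2 of 18 without, whereas in series 1 its medians were 403.5 CPM with and 1587 CPM without.

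**Figure D4:**
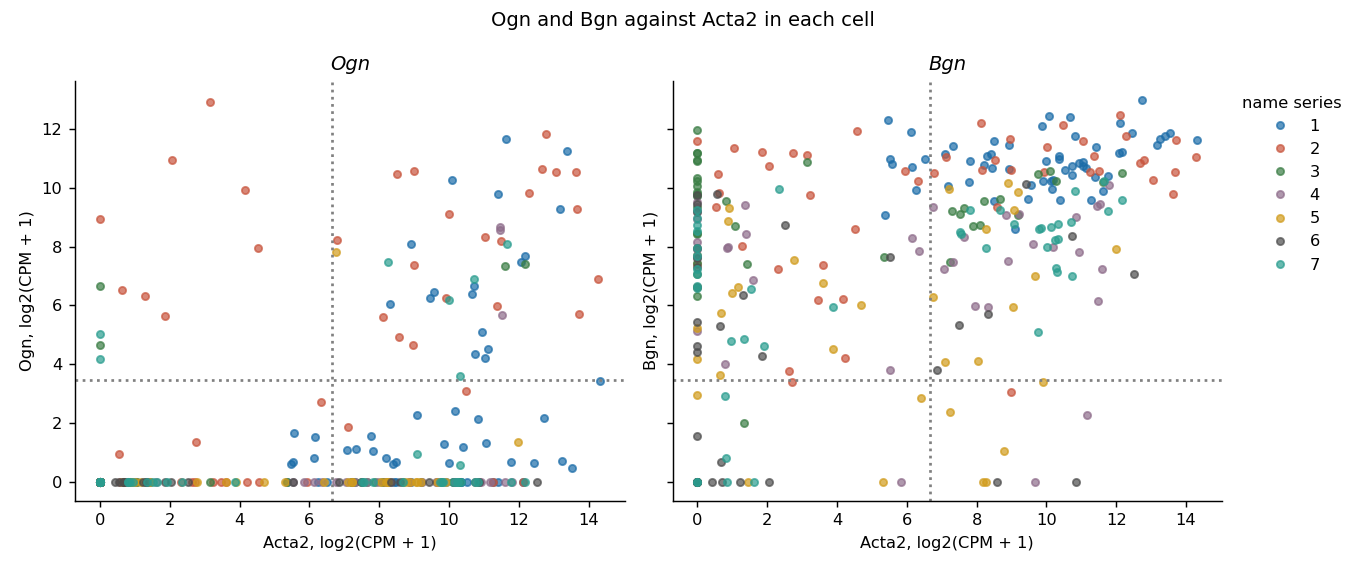
Level of Ogn (left) and Bgn (right) against Acta2 in each cell, all as log2(CPM + 1), coloured by name series, with dotted lines at 100 CPM of Acta2 and at 10 CPM of the gene. Above 10 CPM of Ogn, 48 cells lie right of the Acta2 line and 12 left of it, and Bgn fills both sides.

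Myh11, the myosin of mature smooth muscle, reached 100 CPM in 9 cells of series 1, 7 of series 2 and 1 of series 3. In series 2 Ogn was detected in 6 of those 7 cells and in 22 of the other 41, Lum in 4 of 7 and 34 of 41, and Fmod in 0 of 7 and 17 of 41. In series 1 the median of Lum was 189.3 CPM in the 9 Myh11 cells, against 2163 CPM over the series, and that of Bgn was 3204 against 1885 CPM. These differences were not tested.

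The cells of series 2 with glial markers were low in several of the genes. Of the 8, Dcn was detected in 4 against 36 of the other 40 cells, Lum in 3 against 35, Aspn in 2 against 27 and Bgn in 7 against 39. Medians were 109.7 against 1780.1 CPM for Bgn and 6.24 against 1805 CPM for Lum, at like depth (median totals 1592174.5 and 1630832.5 reads). Fmod was detected in 3 of 8 and 14 of 40, and Prelp in 3 of 8 and 16 of 40. The 7 cells of series 1 with glial markers did not show such low shares, since all 7 held Dcn, Lum, Bgn, Fmod and Aspn, and their medians were 4809 CPM for Dcn and 2050.2 for Lum against 7757 and 2271 in the other 51 cells. Depth was not alike there, since these 7 included cells of 71923, 170463, 232177 and 276107 reads. The median total of series 1 was 1588065.5 reads, and in the shallowest of these cells 1 read passes 10 CPM. The part of the marked cells in the series 2 values was not tested beyond leaving them out.

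Whether cells rich in one gene were rich in another depended on whether the name series were kept apart. Over all cells, Spearman's rho of log2(CPM + 1) had a median of 0.46 over the 21 pairs and was 0.3 or more in 16 pairs, the highest being Dcn and Bgn at 0.65. Within name series the median over pairs was 0.10, and Dcn and Bgn fell to 0.10. One pair reached 0.3 within series, Dcn and Lum, with a median rho of 0.42 (0.22 to 0.81, above 0 in all 7 series). The next pair, Bgn and Fmod, had 0.25, and the lowest, Dcn and Aspn, -0.04. These correlations run across cells whose totals differ widely within a series, and they are descriptions. Both Dcn and Lum were detected in 55.1% of cells, where the product of their shares within series gives 51.5%, inside the interval of the joint share (49.2 to 60.9%). The joint share was above the product in 17 of the 21 pairs, and the product lay outside that interval in 0. This cannot decide whether the genes were found together more often, since the interval takes no account of each gene's own share. All 88 cells with Fmod held Bgn, and the product (29.1%) was still inside the interval (24.8 to 35.5%).

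**Figure D5:**
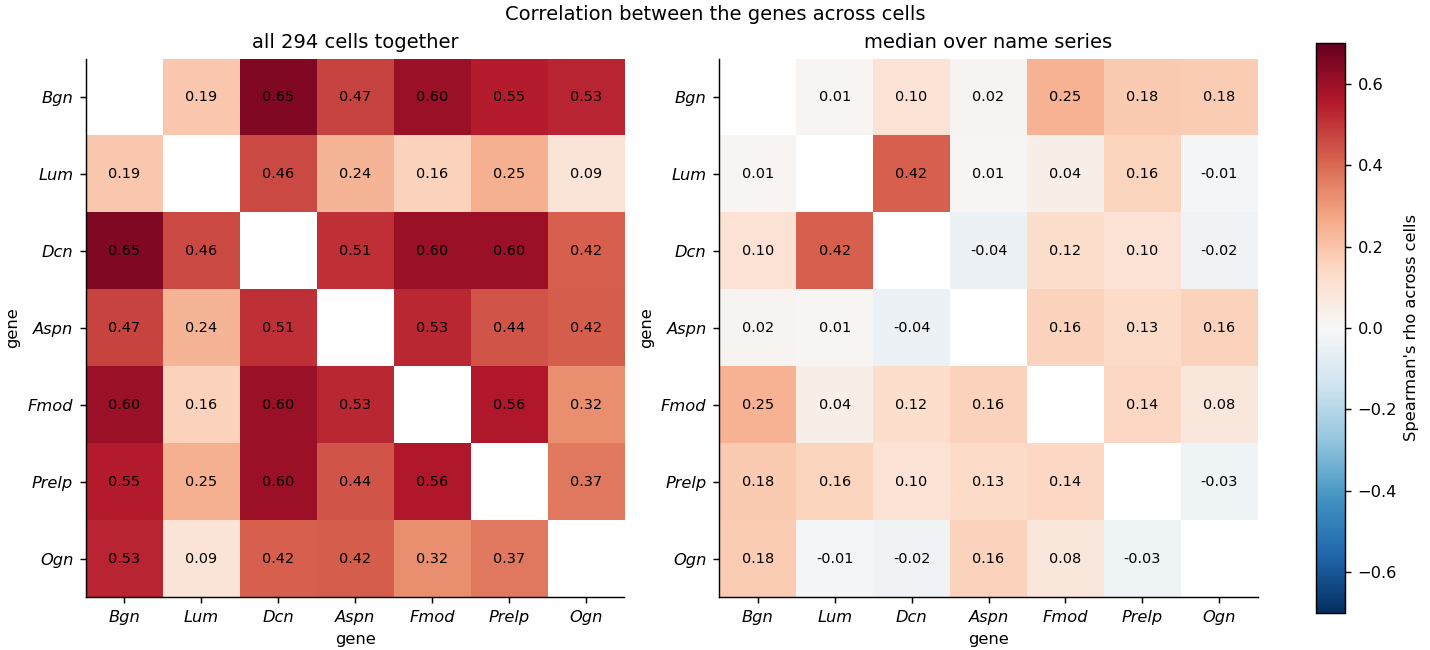
Spearman's rho between each pair of the 7 genes, across all cells on the left and as the median over name series on the right, with red above 0 and blue below. The left panel is red in nearly every pair, while on the right Dcn and Lum, at 0.42, are the 1 pair above 0.3.

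Dcn and Lum are also neighbours, on the same strand of chromosome 10 with 46984 bases and 0 annotated genes between them. The other neighbouring pairs did not show such values. Ogn and Aspn had a median within-series rho of 0.16, and Fmod and Prelp, 115839 bases apart on chromosome 1 and on opposite strands, had 0.14. The neighbours Dcn and Lum also parted ways in series 4 to 7, where Lum stayed at 47.1 to 92.1% of cells and Dcn at 8.82 to 36.4%.

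Other genes that ran with each member within series were sought among the 8852 genes that reached 10 CPM in 10% of cells or more, keeping those with a median rho of 0.3 or more and 1 sign in each series that gave a value. Dcn had Lum (0.42) and Igf1 (0.34), an insulin-like growth factor, and Lum had Igf1 (0.43), Dcn (0.42), Vcan (0.36), Tcf12 (0.35) and Dlk1 (0.35). Fmod had Abi3bp (0.51), 1500015O10Rik (0.38) and Col2a1 (0.33), the first pair over only 4 series. Aspn had Ptn (0.42), Abi3bp (0.40), Gpc3 (0.38) and Col3a1 (0.34). Ogn had Cst3 (0.32), Isyna1 (0.31), Cxcl12 (0.31) and Cd200 (0.31), and Bgn and Prelp had none. These are weak correlations over the cells of 4 to 7 series. Against 12 smooth muscle genes, the median rho of Lum was below 0 with each, from -0.43 with Tagln to -0.05 with Des. That of Dcn was also below 0 with each, from -0.30 with Tagln to -0.003 with Tpm2. That of Ogn ran from -0.07 with Des to 0.29 with Myh11. With Acta2, the gene of the split, Ogn had 0.27, above 0 in all 6 series with a value, and Bgn had 0.18, above 0 in all 7. Ogn was at 0 in 34, 35 and 32 cells of series 3, 4 and 5, which held 38, 38 and 34. The sign of its rho there rests on few cells.

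The rest of the family was scarce. Of 12 other small leucine-rich proteoglycans listed, 8 had a row, and 7 of those were restricted, against 49.2% of all genes. Ecm2, found in 18.03% of cells and in 50% of series 2, was the 1 uneven gene, Tsku was detected in 11.6% of cells, Omd in 4.76% and Epyc in 3.74%. None of the 8 was broad, against 7.17% of all genes, and 2 were graded, against 20.9%. Kera, Chad, Nyx and Nepn were not analysed here.

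Several collagens that these proteoglycans bind were present in nearly every cell. Of 13 fibrillar and associated collagen genes 5 were broad, against 7.17% of all genes. Among these were Col3a1 (99.7% of cells), Col1a2 (99.3%), Col1a1 (96.9%) and Col5a1 (96.9%). Of the 13, 8 were graded, against 20.9% of all genes. Every mean of series 1 to 3 lay above those of series 4 to 7 for 5 of the 13, against 4.87% of all genes. Col1a1 ran from a mean of 3089 CPM in series 2 to 243.8 in series 6, and its lowest series share was 91.2%. With Acta2, 1 of 13, Col12a1, was higher, against 2.38% of all genes, and 0 were lower, against 2.75%.

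Few enzymes that build the sugar chains were broad, and few genes of the whole table were (7.17%). Of the 6 genes that make the linker to the core protein 0 were broad, and the most frequent, B3gat3, was in 31.3% of cells. Of 15 chondroitin and dermatan sulfate genes with a row, 1 was broad, Chsy1 in 74.5%, followed by Chpf in 43.9% and Dse, a dermatan sulfate epimerase, in 42.2%. Of 7 keratan sulfate genes 0 were broad, and B4galt1 was the most frequent at 37.8%. B3gnt2 of that list was higher with Acta2, as were 2.38% of all genes.

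Over all genes 7.17% were broad and 2.38% were higher with Acta2. Of 14 proteases and collagen-processing genes with a row 3 were broad, Mmp2 (88.8%), Mmp14 (88.1%) and Plod2 (71.8%). Bmp1, which trims the propeptide of biglycan, was in 68.4% of cells. Lox, which crosslinks collagen, was higher with Acta2 at a mean log2 ratio of 1.72. Of 12 receptors and ligands with a row 2 were broad, Tgfb2 (84.01%) and Igf1r (67.7%), and Ctgf was higher with Acta2 at 0.94. Tlr2 and Tlr4, receptors of soluble biglycan, were detected in 4.76% and 5.10% of cells. Of 7 large proteoglycans with a row, Vcan (95.6%) and Agrn (71.8%) were broad. The median log2 ratio with against without Acta2 was -0.04 over the collagens, 0.39 over the receptors and ligands and -0.01 over all genes.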

How the data were processed

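Reads of single cells were used from 2 deposited tables. The first holds raw counts of reads per gene, made by the authors from Illumina HiSeq read pairs of full-length cDNA (SMARTer v4, Nextera XT), per the labels' protocols. The second deposited table holds a rounded score per gene and cell, and its making is not given in the sources used here. The submitters' processing notes name HISAT2 2.1.0, featureCounts, Seurat and the mm10 build, without saying which table each made. No molecular identifiers are named, so counts are reads, and intervals cover counting error only. Columns were matched to cells by name, and 0 were left unmatched.

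Counts were divided by the cell total to give CPM with Python 3.11.15, pandas 2.3.3, numpy 2.4.6 and scipy 1.17.1. Detection was 10 CPM. Intervals are exact Clopper-Pearson 95% intervals for shares and order-statistic intervals for medians. No test was run, because no embryo is named and the cells form 1 group. The scripts were tested on simulated data. No doublet caller was run, since the labels describe imaging of each captured cell.

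Coordinates, transcripts and lengths are from GENCODE M21 on GRCm38, and promoter windows from RefSeq. Of the 7 members 5 had a promoter entry. Genes named are the 7 members, up to 4 examples of each pathway list, those detected in most cells, and up to 5 genes per member with the highest median rho. Genes named outside that rule were Epyc, Col12a1, B3gnt2, Lox, Tlr2, Tlr4, Myh11 and Des, chosen after their values were seen. Members and lists were chosen with earlier results of these data known. Further choices were made after values were seen: leaving out cells with glial markers, using principal transcripts for lengths, and asking for 1 sign only in the series that gave a correlation, and the rule on shares with and without Acta2. Alternatives were 1 read or 100 CPM for detection, other Acta2 splits and added CPM, the second table, thinning to 300000 reads, leaving out the 33 cells below that depth, and leaving out each name series.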

Additional observations from a re-analysis of the deposited data

How the results depend on the processing

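Counts of genes past a rule moved as follows. The count of broad genes was 1 (Bgn), became 2 with detection at 1 read and 2 without name series 5 (Lum and Bgn in both), and 0 at 100 CPM. The count of genes higher with Acta2 was 1 (Ogn) and fell to 0 with the split at 10 CPM, with the split at 1000 CPM, with 100 CPM added and with glial-marked cells left out, the last chosen after seeing the data. It was 2 (Bgn and Ogn) with means of log2(CPM + 1) and without name series 1, 3, 4 or 6, and 4 with all cells in 1 stratum (Dcn, Bgn, Fmod and Ogn). The count lower with Acta2 was 0 and became 1 with the split at 1000 CPM (Dcn), with means of log2(CPM + 1) (Lum), and without name series 6 or 7 (Dcn in both). Other settings kept these counts, those of restricted genes (0) and of graded genes (7) within 1.5 times. The thinned cells and the second table changed neither the broad nor the restricted count. Of the single values 42 moved by more than their spread, among them the shares without series 1, which were 47.9% for Dcn and 39.4% for Aspn. No paired analysis was possible because the cells form 1 group without replicate numbers. Depth limits shares near 0: 1 read was worth 0.614 to 1.57 CPM in the median cell of a series, and for 34 cells at 0 reads the exact 95% interval reaches 10.28%.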
